A study of Homo sapiens with 12 samples.

Results

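The genes described here encode glycoproteins of the extracellular matrix and the enzymes that cross-link its fibres. They were taken by name from the 3 count matrices of the series, and all 10 (FN1, SPARC, THBS1, THBS2, TNC, POSTN, FBN1, LOX, LOXL2 and FSTL1) were found among the 33514 gene symbols, of which 25899 had at least 1 unique molecular identifier (UMI). All 10 were also among the 17897 genes that passed the filter on low counts. The cells were 3 established lines of head and neck squamous cell carcinoma (HNSCC), SCC1, SCC6 and SCC25, and the 3′ ends of their transcripts were counted cell by cell with the droplet method of scRNA-seq. In each line, cetuximab, which is an antibody against EGFR, was given daily at 100 nM for 5 days, and the untreated cells received phosphate-buffered saline (PBS). There were 2 replicates per group and 12 samples in 6 groups. Each line is a culture derived from 1 carcinoma, and transcripts rather than deposited protein were measured.

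The matrix around epithelial tumours is built from fibrillar proteins that bear load and from matricellular proteins that adjust how cells attach to it. Fibronectin, the product of FN1, is laid down as fibrils through integrins and serves as a scaffold on which collagens, fibrillin and thrombospondins assemble. In carcinomas much of this matrix comes from fibroblasts, and carcinoma cells can make more of these proteins when they take on mesenchymal traits. Vimentin (VIM), the intermediate filament followed by the study as a mesenchymal gene, is therefore given beside the 10 genes.

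The sequences just before the start sites of 5 of these genes are shown as a description of their letters. The members whose levels moved most alike, described below, include FSTL1 and TNC, which are not among the 5. Whether shared letters go with shared changes was not tested. The sequences were read from the RefSeq promoter table of build GRCh38.p14, which held 9 of the 10 genes in 11 entries. Each line runs 5′ to 3′ on the strand of the gene over the last 130 bases before the start site, and capitals mark every match, on either strand, to GGAATG (the core letters bound by TEAD factors), GCCNNNGGC (TFAP2 factors), TATAAA (the TATA box) or GGGCGG (SP factors).
FN1, chr2:215436069-215436198, minus strand: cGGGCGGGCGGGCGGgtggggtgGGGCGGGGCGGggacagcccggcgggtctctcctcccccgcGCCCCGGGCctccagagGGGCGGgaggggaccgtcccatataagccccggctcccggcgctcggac
SPARC, chr5:151686916-151687045, minus strand: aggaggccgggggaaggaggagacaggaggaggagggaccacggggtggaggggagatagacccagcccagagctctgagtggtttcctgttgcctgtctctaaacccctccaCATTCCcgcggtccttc
THBS1, chr15:39580949-39581078, plus strand: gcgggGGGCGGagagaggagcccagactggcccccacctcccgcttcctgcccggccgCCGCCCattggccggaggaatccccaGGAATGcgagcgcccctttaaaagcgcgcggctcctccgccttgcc
THBS2, chr6:169253847-169253976, minus strand: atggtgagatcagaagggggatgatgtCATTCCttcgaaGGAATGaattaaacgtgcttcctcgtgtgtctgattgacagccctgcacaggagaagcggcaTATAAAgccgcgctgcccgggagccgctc
FBN1, chr15:48644971-48645100, minus strand: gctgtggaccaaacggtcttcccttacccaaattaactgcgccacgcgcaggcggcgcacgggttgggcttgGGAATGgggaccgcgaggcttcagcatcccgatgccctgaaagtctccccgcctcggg

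Over the whole tabulated window, from 250 bases before to 50 after the start site, GGAATG or its reverse complement was found for 4 of the 9 genes (SPARC, THBS1, THBS2 and FBN1), and in 14.0% of all 35116 promoter entries. In SPARC the match began 17 bases before the start site, in THBS1 46, in FBN1 58, and in THBS2 there were 2 matches, 103 and 91 bases before it. GCCNNNGGC stood in the windows of FN1 and FBN1 and in 23.2% of all entries, and GGGCGG in those of FN1, THBS1, TNC, LOX and FSTL1 and in 45.0% of all entries. TATAAA was found for THBS2 and POSTN (11.5% of entries) and TGACTCA, the letters bound by AP-1, for POSTN (4.95%). In the 5 stretches shown, neighbouring GGGCGG matches of FN1 shared bases with each other and no other matches did. The FN1 stretch had the highest content of G and C, 82.3%, and the THBS2 stretch the lowest of the 5, 53.8%. These matches describe letters in a window and not binding, and no binding was measured here.

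**Figure D1:**
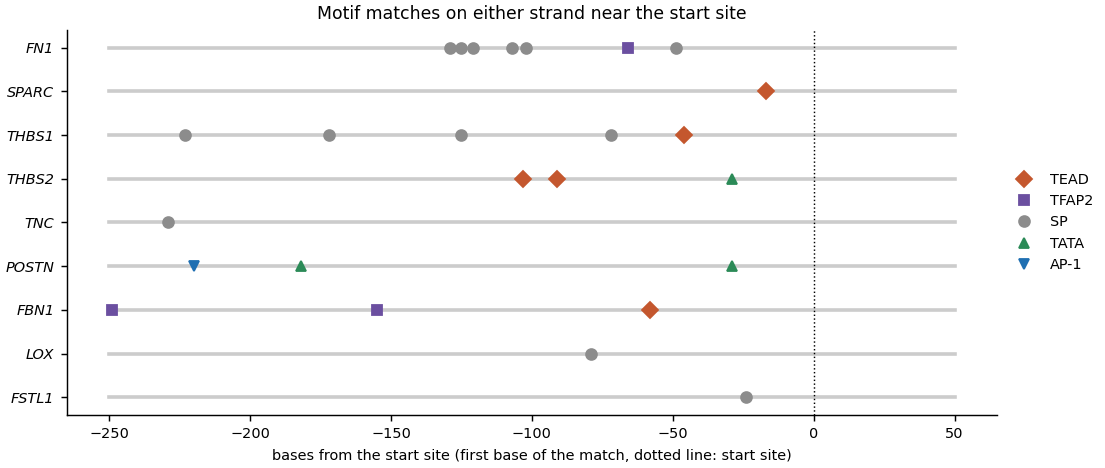
Motif matches by distance from the start site for the 9 genes with a tabulated promoter. The horizontal axis gives the distance in bases, each grey line is a window from 250 bases before to 50 after the start site, and each symbol is the first base of a match on either strand (for LOX the first of 3 entries is drawn). The TEAD letters stand within 103 bases of the start site in SPARC, THBS1, THBS2 and FBN1.

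The samples held 961 to 2854 cells and 57057402 to 112170073 UMIs each, so that the spread between replicates, and not counting, limited all but the rarest transcripts. Levels are given in CPM, UMI counts scaled to a common library size with TMM factors, and shares of positive cells after thinning every cell to 15000 UMIs. The 9 markers of squamous epithelium (4 keratins, TP63, EPCAM, CDH1, DSP and SFN) summed to 6058 to 14502 CPM in SCC1 and SCC25 and to 1228 to 3305 CPM in SCC6, where KRT5 (1.16 to 4.47 CPM) and KRT14 (0.42 to 2.52 CPM) were almost absent and KRT17 and EPCAM were present. These sums moved with treatment, from 6058 and 6809 to 10115 and 10622 CPM in SCC1 and from 1228 and 1480 to 2652 and 3305 CPM in SCC6 (lowest and highest sample). In SCC6, 6 of the 9 were called higher (9.94% of all genes were) and 2 lower (10.1%) in the fit with a replicate block. In SCC25 the groups overlapped, at 7291 and 12677 against 9305 and 14502 CPM. The part of these markers in the results below was not tested. The 4 genes taken as background, which squamous carcinoma cells should lack, reached a largest share of 0.183% of cells with a UMI in a sample. Equal-numbered replicates of cetuximab and PBS deviated together, so each comparison is given from a fit without and from a fit with the replicate number as a block within each line.

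Untreated cells of the 3 lines carried different sets of these genes. SCC1 expressed SPARC, THBS2 and FSTL1 far above the other lines, SCC6 and SCC1 shared a high level of FN1, and SCC25 had the most TNC. Between untreated SCC6 and SCC1, 5 of the 10 genes passed the test (40.2% of all genes tested did), between SCC25 and SCC1 6 (40.8%), and between SCC25 and SCC6 5 (40.9%). The lines thus differed in these genes about as often as in genes at large.

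SPARC encodes osteonectin, a collagen-binding matricellular protein. In untreated SCC1 it stood at 164 and 166 CPM, with 11729 and 15861 UMIs, and in untreated SCC6 only 4 and 10 UMIs were counted in the 2 samples. SCC25 lay between, with 0.411 and 0.671 CPM, on 33 and 69 UMIs of which 1 cell in each sample held 18 and 27. Without those cells 15 and 42 UMIs were left. All 3 lines therefore differed from each other without overlap, by a log2 difference of -11.00 ± 0.57 (SE) for SCC6 against SCC1, -8.24 ± 0.49 for SCC25 against SCC1 and 2.76 ± 0.52 for SCC25 against SCC6 (FDR = 0.0020 for the last).

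THBS2 encodes thrombospondin 2, a matricellular protein that limits the growth of vessels. It was expressed in untreated SCC1 at 44.9 and 40.2 CPM and was close to nil elsewhere, with 1 UMI in both SCC6 samples together and 3 in both SCC25 samples. The pooled level in SCC1 was 7412 times that of SCC6 (95% counting interval 1330 to 292781) and 2576 times that of SCC25 (881 to 12493). These intervals cover counting error only. The 2 genes thus set SCC1 apart from both other lines.

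FSTL1, a secreted glycoprotein of the SPARC family with a follistatin-like domain, fell in the order SCC1, SCC6, SCC25. It stood at 162 and 109 CPM in untreated SCC1, at 22.8 and 17.3 CPM in SCC6 and at 12.3 and 5.94 CPM in SCC25. Each step of that order passed the test, the smaller one with a log2 difference of -1.14 ± 0.39 for SCC25 against SCC6 (FDR = 0.039). That call was lost without SCC25 replicate 2 (-0.70, FDR = 0.22), SCC6 replicate 1 (FDR = 0.17) or SCC6 replicate 2 (FDR = 0.055), and in a fit of these 4 samples alone (FDR = 0.062).

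FN1 was at 390 and 217 CPM in untreated SCC1, at 506 and 516 CPM in SCC6 and at 54.8 and 11.4 CPM in SCC25. SCC1 and SCC6 did not differ beyond their spread, with a log2 difference of 0.75 ± 0.76 (FDR = 0.47), and SCC25 was below both, by -3.20 ± 0.82 against SCC1 (FDR = 0.011) and -3.95 ± 0.85 against SCC6 (FDR = 0.0044). The 2 untreated SCC25 samples differed from each other more than those of the other lines.

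TNC encodes tenascin C, a matricellular protein of wound edges and tumour stroma. Its untreated levels rose in the order SCC1, SCC6, SCC25. They were 0.391 and 0.262 CPM in SCC1, 1.17 and 1.78 CPM in SCC6 and 60.04 and 20.7 CPM in SCC25. All 3 differences passed the test, the largest at 6.96 ± 0.69 for SCC25 against SCC1. The difference of SCC6 from SCC1, 2.19 ± 0.61 (FDR = 0.016), was no longer called without SCC1 replicate 1 (FDR = 0.0502), SCC1 replicate 2 (0.11) or SCC6 replicate 2 (0.080), nor over sums of thinned cells (0.073).

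Lysyl oxidase, the product of LOX, oxidises lysines of collagen and elastin so that they cross-link. It was low in untreated SCC1 (0.14 and 0.356 CPM) and higher in SCC6 (4.86 and 8.05 CPM) and SCC25 (8.75 and 11.1 CPM), and the last 2 lines did not differ beyond their spread (FDR = 0.35). For the related enzyme LOXL2, untreated SCC25 (4.91 and 5.61 CPM) was below SCC6 (9.13 and 13.6 CPM) with a log2 difference of -1.11 ± 0.34 (FDR = 0.025), a call lost without SCC25 replicate 1 (FDR = 0.11), SCC25 replicate 2 (0.068) or SCC6 replicate 2 (0.15), and SCC1 at 7.27 and 9.06 CPM passed the test against neither. THBS1, FBN1 and POSTN passed none of the 3 comparisons of untreated lines. THBS1, whose product thrombospondin 1 binds latent TGF-beta and the receptor CD47, ranged from 26.1 to 71.2 CPM over the 6 untreated samples. FBN1, which encodes fibrillin 1 of the microfibrils, ranged from 0.31 to 1.71 CPM, and POSTN, which encodes periostin, had 6 UMIs over all 6.

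**Figure D2:**
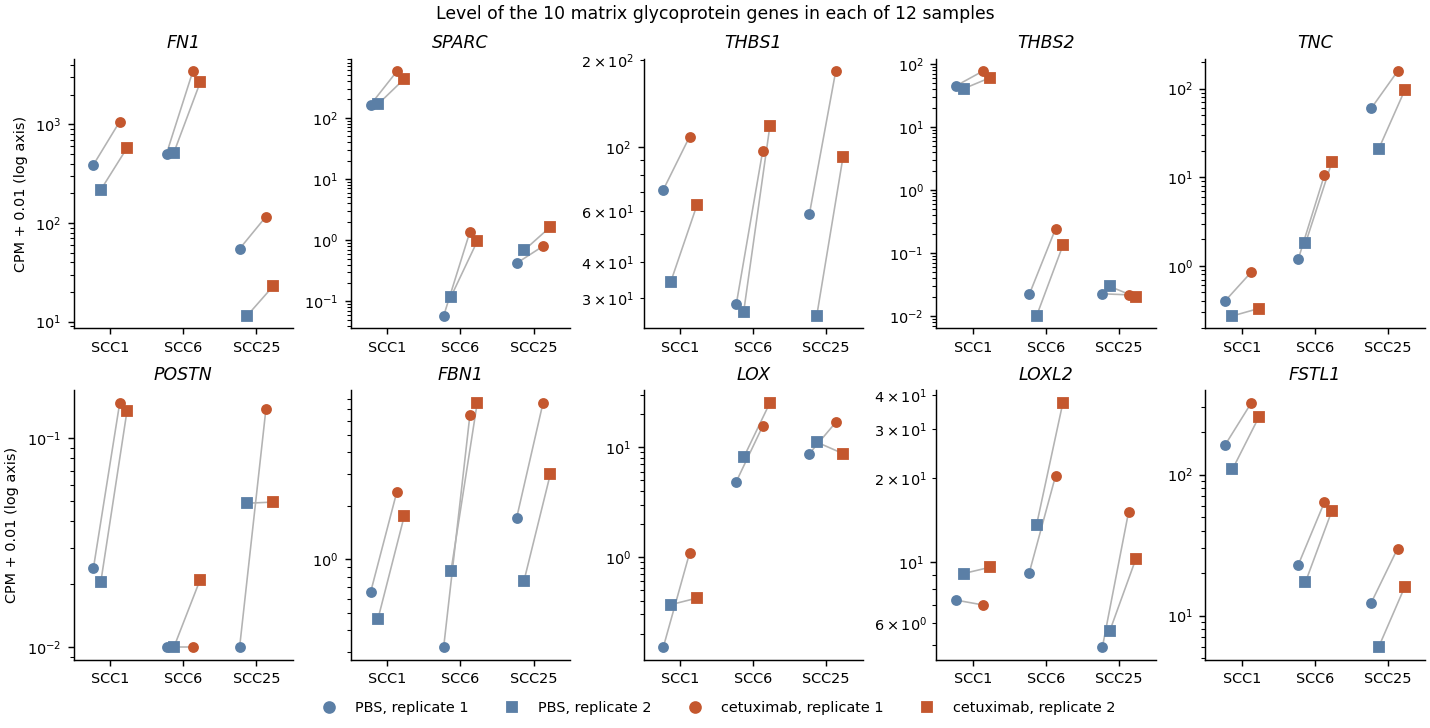
Level of each gene in the 12 samples. The vertical axes give CPM + 0.01 on a log scale of their own for each gene, circles are replicate 1, squares replicate 2, blue PBS and orange cetuximab, and grey lines join equal-numbered replicates. FBN1, FSTL1 and SPARC lie higher in both cetuximab samples than in both PBS samples of every line.

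With cetuximab the level was higher in most pairs of equal-numbered samples. Of the 60 changes, over 10 genes, 3 lines and 2 replicates, 4 were between samples of at most 3 UMIs each (THBS2 in SCC25 and POSTN in SCC6) and are not counted. Of the other 56, 54 were above 0, where 50% of all such changes over the tested genes were, and 1 of the 54, POSTN in SCC25 replicate 2, rested on 4 UMIs in each sample. Both cetuximab samples lay above both PBS samples for 7 of the 10 genes in SCC1 (22.3% of all genes tested), for 9 in SCC6 (25.5%) and for 7 in SCC25 (14.4%). FBN1, FSTL1 and SPARC did so in all 3 lines, as 3.86% of all genes did. These counts include genes with few UMIs. POSTN in SCC1 had 1 and 1 with PBS and 9 and 11 with cetuximab. THBS2 in SCC6 had 1 and 0 against 18 and 11, and LOX in SCC1 10 and 34 against 70 and 36. POSTN in SCC25 had 0 and 4 against 11 and 4, and 1 cell held 10 of those 11. The 2 changes below 0 were LOX in SCC25 replicate 2 and LOXL2 in SCC1 replicate 1.

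The fit without the block called 4 of the 10 higher in SCC6, namely SPARC, THBS2, FBN1 and TNC, where 2.51% of all genes were called higher. Without PBS replicate 1 of SCC6 it called 0 of the 10 there (0.0485% of all genes were called higher), and without cetuximab replicate 1 it called 1 (0.302%). It called none of the 10 in SCC1, where 3 genes in all were called (0.0168%), and none in SCC25, where no gene was (0%). At an unadjusted p under 0.05 there were 1570 genes in SCC1 and 1041 in SCC25, and DESeq2 called 1 of the 10 in each of these lines, SPARC in SCC1 (FDR = 0.0040, 1.13% of all genes were called higher) and FBN1 in SCC25 (FDR = 0.040, 0.464%). With the replicate block, 6 were called higher in SCC1 (2.46% of all genes were), 9 in SCC6 (9.94%) and 6 in SCC25 (0.771%). FN1, THBS1, FBN1 and FSTL1 were called in all 3 lines in that fit. Across the 3 lines, FBN1, FSTL1, SPARC, THBS1 and TNC were called without the block (2.53% of all genes were called higher), and FN1 and LOXL2 joined them with it (6.03%).

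Over the 10 genes SCC1 had a median log2 change of 1.27, SCC6 of 2.46 and SCC25 of 1.30, and over all genes tested the medians were 0.00, 0.00 and -0.01. Members with at most 3 UMIs in a group take their fitted change in part from the prior count. Without them the median was 1.09 over 9 genes in SCC1, 2.27 over 8 in SCC6 and 1.33 over 9 in SCC25.

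**Figure D3:**
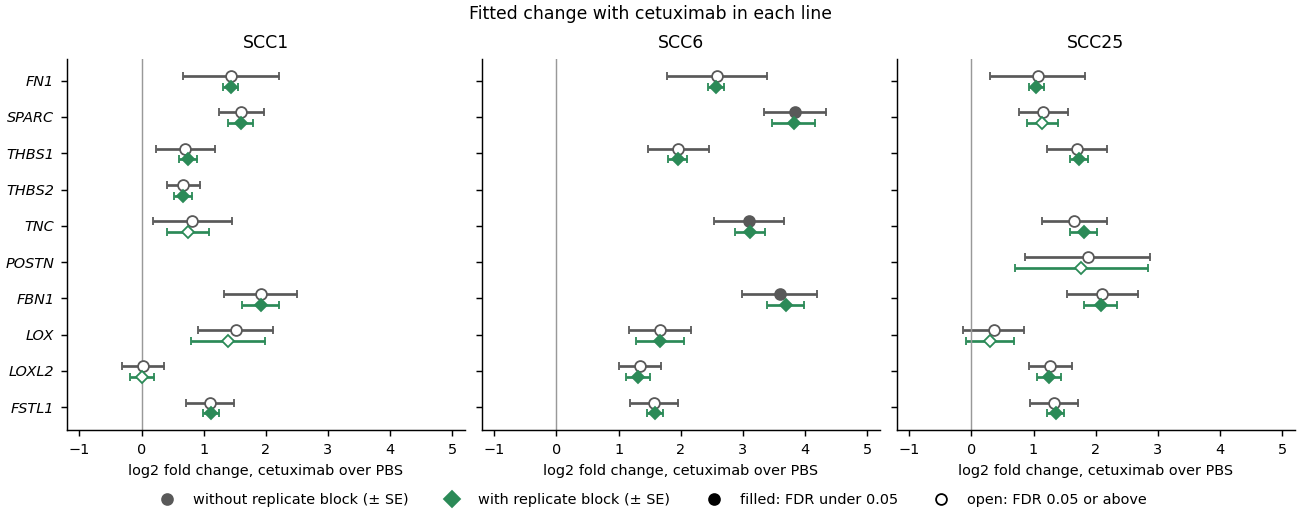
Fitted log2 fold change of cetuximab over PBS in each line, with bars of 1 SE. Grey circles are the fit without the replicate block, green diamonds the fit with it, and filled symbols have an FDR under 0.05 (the 4 gene and line pairs with at most 3 UMIs in PBS are left out, among them THBS2 in SCC6). The estimates of both fits lie close together and the bars are shorter with the block for most genes, such as FN1 in SCC6 at 2.58 ± 0.80 and 2.57 ± 0.13.

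Fibronectin transcripts were called higher in every line with the replicate block within each line. With a block shared by the lines FN1 was called in SCC6 (FDR = 0.014) and not in SCC1 (0.20) or SCC25 (0.47). In SCC6, FN1 was at 506 and 516 CPM with PBS and at 3459 and 2667 CPM with cetuximab, which is 5.99 times the PBS mean. The 2 groups were far apart, and the log2 change of 2.58 ± 0.80 had an FDR of 0.11 without the block and 1.3e-04 with it (2.57 ± 0.13). In SCC1 it was at 390 and 217 CPM with PBS and at 1071 and 579 CPM with cetuximab, 2.72 times the mean. The change per replicate was 1.46 and 1.41 on the log2 scale, and the FDR was 0.68 without and 0.0025 with the block.

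In SCC25 the FN1 groups overlapped, because replicate 1 was well above replicate 2 under both conditions. PBS gave 54.8 and 11.4 CPM and cetuximab 116 and 23.0 CPM. Within each replicate the change was nonetheless close, 1.08 and 1.01 on the log2 scale (FDR = 0.98 without and 0.015 with the block). Without cetuximab replicate 1 the unblocked change turned to -0.52. In the interaction test, edgeR without the block called no gene at all (0%, with 1318 genes at an unadjusted p under 0.05). With the block FN1 was called (FDR = 0.019, 1.29% of all genes were) and the other 9 were not, whereas DESeq2 called SPARC (FDR = 0.018) and THBS2 (FDR = 0.015) and not FN1 (1.54% of all genes were called). The change per replicate of 2.77 and 2.37 in SCC6 lay above the 4 changes of the other lines.

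Both cetuximab samples had more SPARC than both PBS samples in every line, from very different starting levels. SCC1 went from 164 and 166 CPM to 575 and 431 CPM, 3.05 times the PBS mean, with a log2 change of 1.61 ± 0.36 (FDR = 0.20 without and 0.0081 with the block). In SCC6 the 2 PBS samples held 4 and 10 UMIs and the cetuximab samples 106 and 86, a log2 change of 3.84 ± 0.50 (FDR = 0.0068). The level reached there, 1.37 and 0.951 CPM, stayed far below that of untreated SCC1. SCC25 gave 0.411 and 0.671 CPM with PBS and 0.788 and 1.64 CPM with cetuximab, a change of 1.16 ± 0.40 that passed neither fit (FDR = 0.69 and 0.094).

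The 2 thrombospondins were found in different lines. THBS1 was present in all 3, at 28.7 and 26.9 CPM in SCC6 with PBS and 96.9 and 119 CPM with cetuximab (3.88 times the mean). In SCC25 it was at 58.7 and 26.1 CPM with PBS and 183 and 92.5 CPM with cetuximab (3.25 times). SCC1 gave 71.2 and 34.1 CPM against 109 and 62.9 CPM, groups that overlapped, with the smallest change of the 3 lines (0.61 and 0.89 per replicate). With the block THBS1 passed the test in SCC1 (FDR = 0.030), SCC6 (4.7e-04) and SCC25 (0.0068), and without it in none of them (0.78, 0.057 and 0.59).

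THBS2 changed where it was expressed, in SCC1, from 44.9 and 40.2 CPM to 75.9 and 59.9 CPM (1.60 times the mean, FDR = 0.50 without and 0.036 with the block). In SCC6 it had 1 and 0 UMIs with PBS and 18 and 11 with cetuximab, never more than 1 in a cell. The ratio of the pooled levels was 30.3, with a 95% counting interval of 5.03 to 1238, and the FDR was 0.0096. The thinned shares of positive cells there, 0.27% and 0.183%, rest on 7 and 3 cells, and in thinned cells the 4 background genes were at 0 in all SCC6 samples and reached 0.183% in SCC25. Over sums of thinned cells it was not called (FDR = 0.099). SCC25 held 5 THBS2 UMIs in all.

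TNC went up from a low level in SCC6, from 1.17 and 1.78 CPM to 10.7 and 14.7 CPM, 8.58 times the mean (log2 change 3.10 ± 0.56, FDR = 0.019). In SCC25, where it was most abundant, PBS gave 60.04 and 20.7 CPM and cetuximab 157 and 96.8 CPM, a factor of 3.14 (FDR = 0.63 without and 0.015 with the block). The SCC1 groups overlapped, with 0.391 and 0.262 CPM against 0.843 and 0.32 CPM, and neither fit called a change.

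Periostin transcripts were too rare for a firm statement. SCC1 had 1 and 1 POSTN UMIs with PBS and 9 and 11 with cetuximab, a ratio of 10.9 with a counting interval of 2.65 to 96.4, which passed neither fit (FDR = 0.40 and 0.17). SCC25 had 0 and 4 UMIs against 11 and 4, and SCC6 had 1 UMI in its 4 samples. At these counts a change in SCC6 was not detectable.

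The groups of FSTL1 were apart in each line. It went from 162 and 109 CPM to 324 and 255 CPM in SCC1 (2.14 times the mean), from 22.8 and 17.3 CPM to 64.0 and 55.2 CPM in SCC6 (2.97 times) and from 12.3 and 5.94 CPM to 29.8 and 16.0 CPM in SCC25 (2.51 times). The 6 changes per replicate ran from 1.00 to 1.68 on the log2 scale. Across the lines the change was 1.33 ± 0.21 (FDR = 0.011).

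Fibrillin 1 assembles the microfibrils that store latent TGF-beta and carry elastin. FBN1 went from 0.31 and 0.849 CPM to 6.49 and 7.58 CPM in SCC6, 12.1 times the mean (log2 change 3.59 ± 0.61, FDR = 0.015). In SCC1 it went from 0.643 and 0.45 CPM to 2.39 and 1.74 CPM (3.77 times) and in SCC25 from 1.71 and 0.748 CPM to 7.55 and 3.00 CPM (4.30 times). None of the 3 lines overlapped, and the change across lines, 2.53 ± 0.39, was the largest of the 5 called without the block (FDR = 0.0097). The difference between lines was not called for FBN1 (FDR = 0.81 without and 0.11 with the block), although its changes per replicate were 4.36 and 3.15 in SCC6 and between 1.88 and 2.14 elsewhere.

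Both cross-linking enzymes passed the test in SCC6 with the block. LOX went from 4.86 and 8.05 CPM to 15.5 and 25.5 CPM there (3.17 times, FDR = 0.10 without and 0.021 with the block) and LOXL2 from 9.13 and 13.6 CPM to 20.4 and 37.4 CPM (2.55 times, FDR = 0.058 and 0.0038). LOXL2 also changed in SCC25, from 4.91 and 5.61 CPM to 15.2 and 10.3 CPM (FDR = 0.53 and 0.032). In SCC1 it was level, with 7.27 and 9.06 CPM against 6.99 and 9.55 CPM and a log2 change of 0.02 ± 0.34. LOX changed in opposite directions in the 2 SCC25 replicates, by 0.94 and -0.35, and was not called in SCC25 or SCC1. Its SCC1 changes per replicate were 2.88 and 0.21, and 1 cell held 36 of the 70 LOX UMIs of the first cetuximab sample. The shares of positive SCC1 cells were 0.165% and 0.549% with PBS and 0.853% and 0.668% with cetuximab. They rest on 2 and 9 cells with PBS and 8 and 9 with cetuximab.

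The share of positive cells shows in how many cells a transcript was detected at equal depth. For rare transcripts it follows the mean level, so a higher share need not mean that more cells express the gene. The share was higher in both cetuximab samples than in both PBS samples for 8 of the 10 genes in SCC1 (24.6% of all genes tested), for 9 in SCC6 (34.4%) and for 5 in SCC25 (17.3%). The 8 in SCC1 include LOXL2, at 10.8% and 11.2% with PBS and 11.8% and 12.03% with cetuximab. They also include POSTN, found in 0 and 0 thinned cells with PBS and in 2 and 3 with cetuximab. The 9 in SCC6 include THBS2, found in 1 and 0 against 7 and 3 cells. In SCC6, FN1 was found in 91.9% and 92.0% of untreated cells and in 99.9% of treated cells in both samples, so the rise lay in the UMIs per positive cell, 7.14 and 8.25 with PBS and 54.3 and 44.9 with cetuximab. Its median count per cell of 15000 UMIs was 4 in both PBS samples and 47 and 34 with cetuximab.

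Other genes were detected in more cells. FBN1 was found in 0.49% and 1.15% of untreated and in 8.87% and 9.82% of treated SCC6 cells, and TNC in 1.77% and 2.22% against 12.4% and 16.0%. THBS1 went from 24.3% and 27.2% to 63.9% and 73.8% of SCC6 cells and from 43.4% and 24.8% to 72.8% and 57.4% of SCC25 cells. Its UMIs per positive SCC6 cell rose too, from 1.51 and 1.29 to 2.30 and 2.56. SPARC was found in 0 of 2652 thinned cells of the first PBS sample of SCC6, where a count of 0 allows up to 0.113% of cells with a UMI at that depth, and at full depth in 4 of 2731 cells (0.146%). It was found in 0.205% of thinned cells of the second PBS sample, and in 1.81% (95% interval 1.34% to 2.40%) and 1.77% (1.19% to 2.53%) of treated cells. The 4 background genes gave no UMI in thinned cells of any SCC6 sample. Positive SCC6 cells carried 1.04 and 1.03 SPARC UMIs on average, the least that a positive cell can hold being 1.

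**Figure D4:**
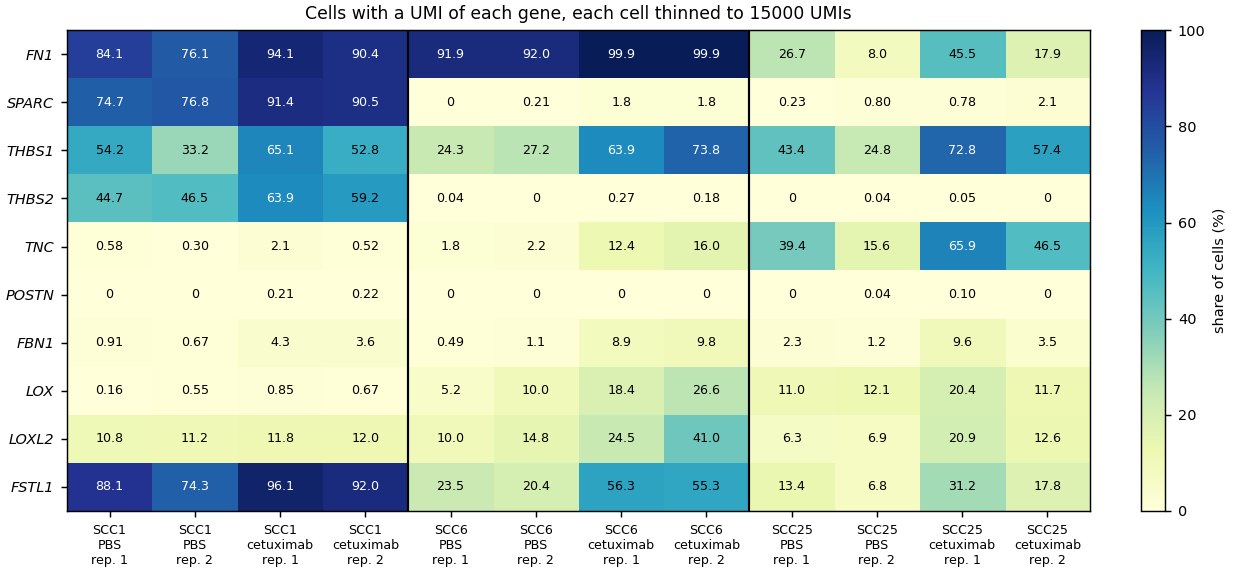
Share of cells with a UMI of each gene in each sample, as a colour from 0 to 100% with the value printed in each field, after thinning every cell to 15000 UMIs. SPARC and THBS2 are found in most or many SCC1 cells and in at most 2.06% and 0.27% of cells of the other lines.

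On average, cells of all lines held a UMI of more of the 10 genes after cetuximab. The mean number of them with a UMI in a thinned cell was 3.58 and 3.20 in untreated and 4.30 and 4.02 in treated SCC1, 1.57 and 1.68 against 2.86 and 3.24 in SCC6, and 1.43 and 0.763 against 2.67 and 1.70 in SCC25. The groups did not overlap in any line. This mean is the sum of the 10 shares of positive cells, so it adds no separate result, and genes at large were not compared. Cells with 4 or more of the genes made up 1.43% and 2.63% of untreated and 26.7% and 39.6% of treated SCC6 cells. In SCC25, 24.5% and 47.5% of untreated cells and 4.84% and 16.3% of treated cells had none of the 10.

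**Figure D5:**
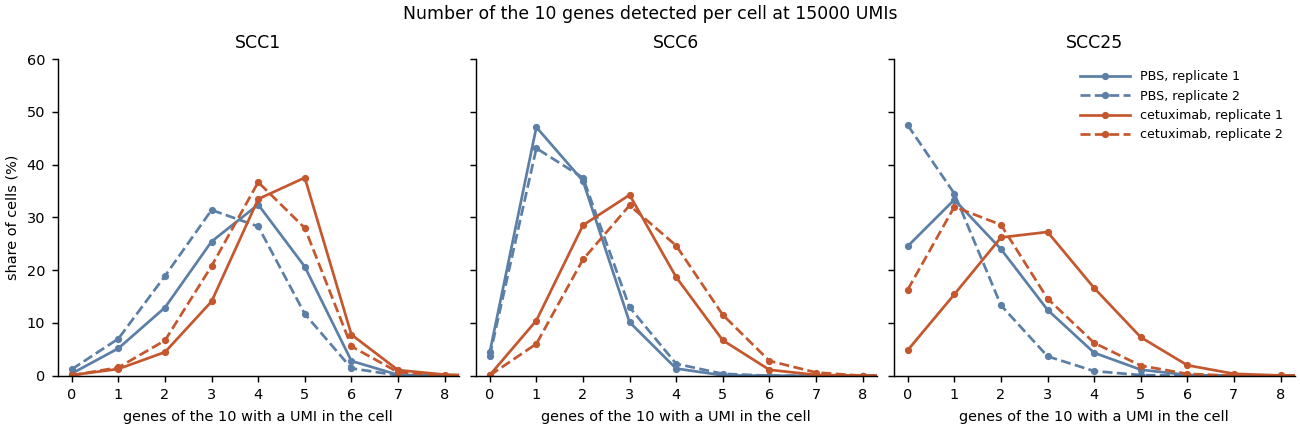
Distribution of the number of the 10 genes with a UMI per cell at 15000 UMIs. The horizontal axis gives the number of genes, the vertical axis the percentage of cells, solid lines replicate 1, dashed lines replicate 2, blue PBS and orange cetuximab. In SCC6 both treated curves peak at 3 genes and both untreated curves at 1.

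Co-detection was counted for pairs of genes with at least 20 cells expected to hold both and at least 5% of cells without each gene. The number of cells with both genes was a median of 1.04 times the number expected from independent shares in SCC1, 1.07 times in SCC6 and 1.21 times in SCC25, and at most 2.1 times, for TNC and FBN1 in treated SCC6 replicate 2. Genes found in most cells, such as FN1, SPARC and FSTL1 in SCC1, cannot give a ratio far above 1. Depth was equal by thinning, but the cells of a sample share a library, and these ratios and correlations are given as a description. In SCC1 the counts of SPARC and FSTL1 went together most in the samples where that pair was counted. Their Spearman correlation over cells was 0.41 and 0.25 in the PBS samples and 0.52 in cetuximab replicate 2. For FN1 and SPARC it was 0.39 and 0.22 in the PBS samples and 0.60 and 0.44 in the cetuximab samples. Pairs with FSTL1 were not counted in cetuximab replicate 1, where fewer than 5% of cells lacked it.

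Vimentin gives a comparison with a mesenchymal gene. VIM went from 33.6 and 92.8 CPM to 841 and 805 CPM in SCC6, from 378 and 266 to 524 and 479 CPM in SCC25, and from 2.03 and 6.59 down to 0.628 and 1.11 CPM in SCC1. In SCC1, then, VIM was called lower with the block (FDR = 0.023) in the fit that called FN1, SPARC, THBS1, THBS2, FBN1 and FSTL1 higher. It was not called without the block (FDR = 0.25) or with the shared block (0.078). DESeq2 (0.0072) and edgeR without the low-count filter (0.0023) called it. Few SCC1 cells carried VIM, 2.06% and 2.87% of thinned cells with PBS and 0.959% and 0.891% with cetuximab. In PBS replicate 2, 1 cell held 97 of its 629 UMIs. The 8 samples of SCC6 and SCC25 allowed cells with and without a VIM UMI to be compared at equal depth. The mean count was higher in VIM-positive cells in 8 of 8 samples for FN1, THBS1, LOXL2 and FSTL1, in 7 for TNC, FBN1 and LOX, in 5 for SPARC, in 4 for THBS2 and in 2 for POSTN. Genes at large were not compared in this way. In the samples where POSTN was not higher, it had no UMI in thinned cells with or without VIM. The same held for THBS2, except in treated SCC6 replicate 1, where its mean was lower with VIM. Where THBS2 was higher it rested on at most 3 positive cells in a sample. The counts for these genes therefore do not tell whether they go with VIM. The mean FN1 count of treated SCC6 cells was 56.0 and 46.7 UMIs with and 31.9 and 24.1 UMIs without VIM, so cells without VIM still stood above all untreated cells on average, whose means ran from 5.90 to 10.7 UMIs.

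Genes near these in the matrix were described by lists. Of 17 further genes of microfibrils and elastic fibres, 14 were tested, and in SCC6 4 were called higher (2.51% of all genes were). MFAP2, a microfibril-associated glycoprotein, went from 27.1 and 57.6 CPM to 185 and 153 CPM (log2 change 1.99 ± 0.34), and MFAP5 from 0.88 and 1.44 CPM to 10.1 and 17.4 CPM (3.57 ± 0.46). LTBP2, a latent TGF-beta binding protein, went from 12.9 and 16.6 CPM to 35.4 and 41.1 CPM (1.38 ± 0.30). FBLN5 was the other one, below 10 CPM in every sample. It, SMOC1, ITGB3, SPP1 and the genes called with the block alone fall outside the rule for named genes and were chosen after their values were seen. The median log2 change of the list was 0.73 in SCC6, 0.17 in SCC1 and 0.40 in SCC25, and with the block MFAP5 was called in SCC1 too.

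Among 11 relatives of SPARC, follistatin and periostin, of which 10 were tested, FSTL3 was called higher across the lines (1.34 ± 0.23, FDR = 0.014). This follistatin-like inhibitor of activin went from 36.1 and 18.1 CPM to 135 and 75.4 CPM in SCC1, from 24.8 and 22.1 to 59.1 and 53.7 CPM in SCC6 and from 21.7 and 16.2 to 35.7 and 30.4 CPM in SCC25. Without the block SMOC1 was called lower in SCC6 (1.3% of all genes were), on 37 UMIs with PBS and 3 with cetuximab. With the block 4 of this list were higher there (9.94% of all genes were) and 2 lower (10.1% of all genes were). The latter were FST, which encodes follistatin, and SMOC1. TGFBI, a relative of periostin, was called lower in SCC1, as 1.99% of all genes were, and higher in SCC6 in that fit.

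Of 9 receptors, all tested, ITGAV, ITGB6 and ITGB3 were called higher across the lines (2.53% of all genes were). The first 2 encode the chains of the integrin alpha v beta 6, an epithelial receptor of fibronectin and latent TGF-beta, and ITGB3 was under 1 CPM in every sample. ITGB6 went from 10.1 and 11.4 CPM to 50.6 and 39.6 CPM in SCC6, and across the lines changed by 1.65 ± 0.29 (FDR = 0.015), and ITGAV changed by 1.15 ± 0.25 (FDR = 0.030). ITGA5, the other main fibronectin receptor chain, was called across the lines with the block (FDR = 0.039) and not without it (FDR = 0.22). With the block 5 of the 9 receptors were called higher across the lines (6.03% of all genes were). None of the 3 lysyl oxidase relatives, of the 2 tested thrombospondins (of 3), of the 1 tested tenascin (of 3) or of the 6 tested genes of a matricellular list of CCN genes and SPP1 (of 7 in the tables) was called in any line or across the lines without the block, and of the first 3 of these lists none was with it. With the block, the CCN gene CTGF was higher in SCC1 and SCC6 and SPP1, which encodes osteopontin and was under 1 CPM in SCC6, was lower there.

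The sum over markers of fibroblasts was higher with cetuximab in each line, although single markers did not all rise. The 8 markers summed to 7.23 and 7.53 CPM in untreated and 15.4 and 16.6 CPM in treated SCC1, to 1.15 and 3.33 against 23.0 and 27.3 CPM in SCC6, and to 21.9 and 42.5 against 46.5 and 84.3 CPM in SCC25. In SCC6 the rise came from COL1A1 (1.03 and 2.75 against 22.6 and 18.8 CPM), COL3A1 and PDGFRB, each called without the block, while THY1, DCN, LUM and PDGFRA stayed under 1 CPM in all 4 samples and THY1 was at 0 in both treated ones. SCC25 carried LUM, at 8.57 and 30.6 CPM with PBS and 18.1 and 58.0 CPM with cetuximab. No member of the list was at 0 in SCC25, and THY1 was between 1.26 and 1.99 CPM. The SCC25 log2 changes of PDGFRA, PDGFRB, THY1 and DCN lay between -0.18 and 0.09. Those of COL1A1, COL1A2, COL3A1 and LUM lay between 0.77 and 1.79. In SCC1, COL1A1 and PDGFRB changed by 0.20 and 0.08 and THY1 by -2.37 ± 2.00, and the other markers by 1.38 to 4.78. The largest were PDGFRA at 4.78 ± 2.16 and COL3A1 at 4.57 ± 2.59. In untreated SCC1, 6 of the 8 markers were under 1 CPM, 2 of them at 0. Without the block no marker was called in SCC1 (0.0168% of all genes were called higher). With it COL1A2, LUM and DCN were called higher there (2.46%). The part of these markers in the results of the 10 genes was not tested.

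Genes whose pattern was most like that of a member were sought by Pearson's r of log2(CPM + 1) over the 12 samples, after the mean of each line was subtracted, among 7558 genes with a mean of at least 10 CPM. The samples share lines and treatment, and r is given as a description. Among the 7 members that reached this level (not POSTN, FBN1 or LOX), FSTL1 and THBS1 were closest (r = 0.96), followed by THBS1 and TNC (0.94) and FN1 and FSTL1 (0.94), and THBS2 and LOXL2 were least alike (0.089). Outside them, FN1 was most like CDH2, which encodes N-cadherin (0.97), THBS1 most like NUAK1 and CALD1 (0.96 and 0.95), TNC most like MSRB3 (0.97), FSTL1 most like TIMP2, an inhibitor of metalloproteinases (0.96), SPARC most like HIST2H2BE (0.98), THBS2 most like HIST1H2BC (0.95) and LOXL2 most like RIPOR1 (0.95). THBS2 was at most 0.232 CPM in SCC6 and SCC25, so each r of THBS2 rests almost only on the SCC1 samples. SPARC was at most 1.64 CPM in those lines.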

How the data were processed

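The series holds 12 scRNA-seq samples of the HNSCC lines SCC1, SCC6 and SCC25. The authors made the counts with CellRanger, for which the submitters' notes name GRCh38, and deposited UMI counts per gene and cell, not normalised; a version of CellRanger is not given in the sources used here. All 23914 deposited cells were used, with no doublet removal, and replicates shared 3 to 10 barcodes within a group and 1 to 13 between groups. Of 33538 lines, 24 repeated a symbol and were added to it. UMIs were summed per sample and tested over 17897 genes with edgeR 4.0.16 (quasi-likelihood F-test, TMM, filterByExpr, Benjamini-Hochberg FDR, threshold 0.05) on all 12 samples, with DESeq2 1.42.0 as an alternative. The scripts were tested on simulated data, in which they recovered large changes and missed many small ones. The simulation used a fixed dispersion of 0.05 and changed only well-counted genes. It does not show how often large changes are missed in these data. Here a change of FN1 in SCC6 by a factor of 5.99 was not called without the block (FDR = 0.11). Whether replicates came from separate cultures is not clear, so p-values measure the spread between these samples, which may be technical.

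Deviations of equal-numbered replicates correlated over 7558 genes (r = 0.70 in SCC1, 0.65 in SCC6 and 0.72 in SCC25), so the numbers were taken as pairs, as a hint from the data. Shares have exact 95% Clopper-Pearson intervals, which cover counting error only. Thinning to 15000 UMIs left out 851 cells. The change per replicate used a prior of 0.5 counts. Genes outside the 10 were named where they had an FDR under 0.05 and a mean of at least 10 CPM in a group, at most 3 per list. The members and the lists were chosen with earlier results of these data known. Shares were not tested, since 2 against 2 samples cannot reach 0.05 in an exact test.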

Additional observations from a re-analysis of the deposited data

Results flagged for a closer look

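FN1 was set apart because its change with cetuximab differed between the 3 lines in the interaction test with the replicate block (edgeR, FDR = 0.01908). Its log2 change per replicate was 2.77 and 2.37 in SCC6, 1.46 and 1.41 in SCC1 and 1.08 and 1.01 in SCC25. Over the other settings the FDR of this test reached 1.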

How the results depend on the processing

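Counts of the 10 genes called are given with the share of all genes called higher in brackets. In SCC1, where none was called, DESeq2 called 1 (1.13%), no low-count filter 2 (0.761%), the replicate block within each line 6 (2.46%) and a block shared by the lines 2 (0.57%). In SCC6, where 4 were called, each of these settings called 9 (5.03%, 2.93%, 9.94% and 7.39%), and leaving out 1 replicate gave 0 to 4, with 0 without PBS replicate 1 (0.0485%) and 1 without cetuximab replicate 1 (0.302%). In SCC25, where none was called, they called 1, 4, 6 and 1 (0.464%, 0.44%, 0.771% and 0.151%). For the difference between lines, DESeq2 and no filter called 2 each (1.54% and 0.958% of all genes) and the replicate block 1 (1.29%). Across the lines, where 5 were called, DESeq2 and no filter called 9 each (5.72% and 2.75%) and the shared block 8 (6.38%), and leaving out 1 replicate gave 3 to 8, with 3 without any 1 of the SCC6 samples, SCC1 cetuximab replicate 1 or SCC1 PBS replicate 2, and 8 without SCC25 cetuximab replicate 2. Between untreated SCC25 and SCC6, it gave 3 to 5, with 3 without PBS replicate 2 of either line. The causes were not tested.

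Over single genes and settings, 1112 of 1227 values kept their direction and side of the threshold, 33 lost a call, 71 gained one and 11 changed sign, each on leaving out 1 replicate. With 1 replicate left out, the log2 change of LOXL2 in SCC1 ran from -0.23 to 0.22, of TNC in SCC1 from -0.022 to 1.38, of FN1 in SCC25 from -0.52 to 2.60 and of LOX in SCC25 from -0.17 to 0.76. Between untreated lines it ran from -3.19 to 1.58 for POSTN and from -1.01 to 0.31 for THBS1 (SCC25 against SCC1), from -0.091 to 1.08 for THBS1 (SCC25 against SCC6) and from -0.81 to 0.64 for FBN1 (SCC6 against SCC1). A lone sample was taken to vary like the other groups. Depth limits POSTN, and THBS2 outside SCC1.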

Other observations

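In SCC25, 8 of 8920 cells with at least 5 SPARC UMIs held 102 of the 336 SPARC UMIs of that line (30.4%) and 14 of its 19 POSTN UMIs (73.7%). Of these POSTN UMIs, 10 lay in 1 cell and 4 in another, which had 73 KRT5 UMIs. Of these 8 cells, 6 had at most 2 KRT5 UMIs, as 0.291% of all SCC25 cells did, against a median of 54 over the line. COL1A1 was found in 6 of them and in 25.1% of all SCC25 cells, and their median FN1 count was 23 UMIs against 0. The cells were chosen after their values were seen, and no test was run.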
